A study of Mus musculus with 20 samples.

Results

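Atf4 and the 3 expressed genes that lie closest to it on mouse chromosome 15 (Mief1, Rps19bp1 and Cacna1i) were followed transcript by transcript in endothelial cells of muscle. They are 4 of the 42374 genes and 20 of the 128643 annotated transcripts in the tables. The 4 genes were picked by their place beside Atf4 and by their levels in these libraries, with the difference between the genotypes already known. That difference is therefore given as a description without a test, while differences between the muscles of 1 genotype were tested. The interaction, which contains the genotype difference, is likewise a description for these genes.

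RNA was sequenced from cells sorted as CD31+CD45-, a gate for endothelial cells, from the soleus, an oxidative muscle, and from the extensor digitorum longus (EDL), a glycolytic muscle. The 4 groups of 5 libraries were wild type EDL, wild type soleus, EDL of mice with an endothelial deletion of Atf4 (ECKO) and soleus of such mice. All animals were C57BL/6N mice of 8 to 10 weeks that received 1 mg tamoxifen per day for 5 days and then at least 7 days without it. The wild type animals were littermates without Cre, so tamoxifen was common to all groups and Cre was not. The promoter that drives Cre, the deleted exons and the number of animals behind a library are not given in the sources used here, so a p-value here speaks of variation among libraries, and that variation may be technical. In bulk RNA, fewer cells of a type and less RNA per cell cannot be told apart.

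Atf4 encodes a basic leucine zipper transcription factor. When cells are short of amino acids or have unfolded protein in the endoplasmic reticulum, phosphorylation of the initiation factor eIF2 lowers general translation but favours translation of the Atf4 message, and the factor then turns on genes for amino acid uptake and synthesis. Mief1 encodes a receptor in the outer mitochondrial membrane that recruits the fission enzyme encoded by Dnm1l. Rps19bp1 encodes a nucleolar protein that binds the ribosomal protein Rps19 and the deacetylase Sirt1. Cacna1i encodes the pore-forming subunit of a T-type, low-voltage-activated calcium channel that is best known from neurons.

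On GRCm38 (GENCODE annotation), Mief1 (ENSMUSG00000022412.14) lies at chr15:80234018-80253371 on the plus strand and ends 1813 bases before Atf4. Atf4 (ENSMUSG00000042406.8) lies at chr15:80255184-80257541 on the plus strand. Rps19bp1 (ENSMUSG00000051518.8) lies at chr15:80260615-80264315 on the minus strand and ends 3074 bases beyond the end of Atf4, so their 3′ ends face each other. Cacna1i (ENSMUSG00000022416.15) lies at chr15:80287238-80398279 on the plus strand and begins 29697 bases beyond Atf4. No member overlaps another, and the single overlap with a further annotated gene is AC140267.1, which lies inside Mief1 on its strand and reached at most 0.1053 CPM (CPM, counts scaled to a common library total after TMM normalisation).

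The stretch around the end of exon 2 is shown because it separates Atf4-201 from Atf4-203 and Rps19bp1-201 from Rps19bp1-203, whose shares are compared later. Each line gives 25 bases of exon 2 in lower case and the 25 bases that follow it in that transcript in capitals. Exon 2 of Atf4 ends at base 80256521, where Atf4-201 (3 exons) goes on into exon 3 and Atf4-203 (a retained intron transcript without coding sequence) reads into the intron. Atf4-202 shares the spliced junction.
Atf4-201: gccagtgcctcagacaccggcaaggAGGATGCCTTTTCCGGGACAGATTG
Atf4-203: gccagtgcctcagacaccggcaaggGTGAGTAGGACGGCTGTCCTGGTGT
Exon 2 of Rps19bp1 ends at base 80263983 of the minus strand, where Rps19bp1-201 (4 exons) goes on into the next coding exon and Rps19bp1-203, annotated as a target of nonsense-mediated decay, takes up an additional exon. Rps19bp1-202 shares the junction of Rps19bp1-201.
Rps19bp1-201: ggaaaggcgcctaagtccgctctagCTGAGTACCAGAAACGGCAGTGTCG
Rps19bp1-203: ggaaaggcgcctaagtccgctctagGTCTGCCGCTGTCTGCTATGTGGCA
Exon 2 of Cacna1i-202, its full-length transcript of 37 exons and 9781 bases, ends at base 80298644. Its junction, taken from the annotation, is shared with Cacna1i-205, which had no count in any library. Reads across junctions were not examined.
Cacna1i-202: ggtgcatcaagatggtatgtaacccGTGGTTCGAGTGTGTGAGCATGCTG

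The 250 bases before the start site are shown for the 3 genes whose levels differed most between the genotypes (RefSeq, GRCm38.p6, each read in the direction of its gene).
Atf4, chr15:80254934-80255183: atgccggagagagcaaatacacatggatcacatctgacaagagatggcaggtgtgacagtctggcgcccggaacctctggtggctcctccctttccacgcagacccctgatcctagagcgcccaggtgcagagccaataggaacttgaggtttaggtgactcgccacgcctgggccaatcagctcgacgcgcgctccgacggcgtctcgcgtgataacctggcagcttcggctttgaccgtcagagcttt
Rps19bp1, chr15:80264307-80264556: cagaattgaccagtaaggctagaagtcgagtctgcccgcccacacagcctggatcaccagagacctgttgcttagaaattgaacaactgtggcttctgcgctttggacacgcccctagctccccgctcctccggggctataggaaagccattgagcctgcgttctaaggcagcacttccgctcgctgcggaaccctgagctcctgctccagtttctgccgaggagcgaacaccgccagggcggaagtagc
Cacna1i, chr15:80286988-80287237: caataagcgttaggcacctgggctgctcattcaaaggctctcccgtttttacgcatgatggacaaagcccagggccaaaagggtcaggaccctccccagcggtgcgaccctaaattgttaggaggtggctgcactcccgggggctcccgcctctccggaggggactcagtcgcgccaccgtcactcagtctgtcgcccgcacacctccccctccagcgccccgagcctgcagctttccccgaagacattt
A search on both strands for TGATGNAA, the core of the composite site at which Atf4 pairs with C/EBP factors, gave no match in these windows or in that of Mief1, and 3.45% of 32817 such windows of the genome hold it. The letters TGACGT, the core of the cyclic AMP response element, were found only in the window of Mief1, on the minus strand with the match beginning 171 bases before the start site, against 6.46% of all windows. The motifs overlap in none of these 4 windows. A missing match says only that these letters are not in these windows.

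Library totals ranged from 8013223 to 21720127 estimated counts, and 13971 genes and 34007 transcripts passed the low-count filter. The sum of 12 endothelial markers was 12560 to 13220 CPM in wild type EDL and 11230 to 11430 CPM in ECKO EDL. In soleus it was 10710 to 11340 CPM in wild type and 11790 to 12160 CPM in ECKO. RNA of other cells also differed between the groups. The sum of 13 immune markers was 19.1 to 24.45 CPM in wild type EDL, 249.9 to 332.4 CPM in wild type soleus, 13.19 to 14.89 CPM in ECKO EDL and 35.8 to 79.6 CPM in ECKO soleus. Sex-linked RNA also moved with genotype. All 10 wild type libraries had Y-linked RNA (at least 92.1 CPM) and at most 0.274 CPM of Xist, and the 5 ECKO EDL libraries had at least 59.3 CPM of Xist and at most 1.55 CPM of Y-linked RNA. ECKO soleus libraries 1, 2 and 3 held both kinds, and libraries 4 and 5 mainly Xist. Gene-level results that involve ECKO soleus were therefore also computed without libraries 1, 2 and 3. This was done for the 4 genes and the tested genes within 500 kb of Atf4. Transcripts, transcript shares and the lists of related genes were not computed in this way. Leaving out libraries 1, 2 and 3 removes the mixed libraries but cannot separate genotype from sex-linked RNA. The ECKO libraries that remain held mainly Xist, and all wild type libraries held Y-linked RNA.

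**Figure D1:**
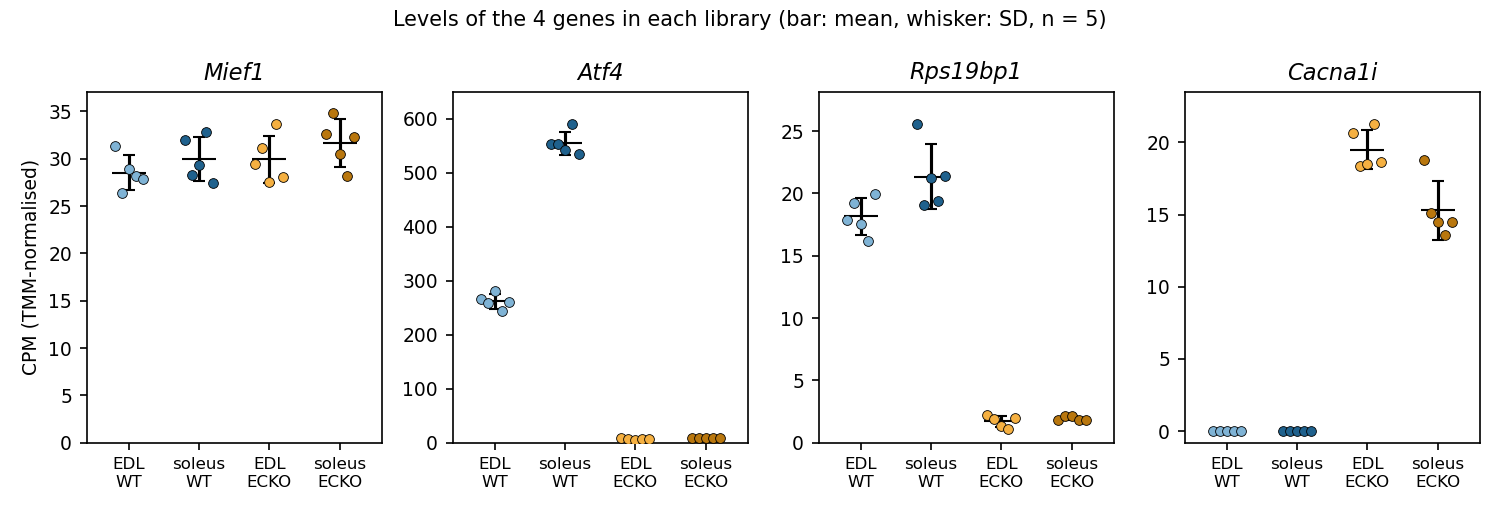
Levels of Mief1, Atf4, Rps19bp1 and Cacna1i in CPM (vertical axes, linear, with a scale for each gene) in the 20 libraries. Points are libraries, bars the mean and whiskers the SD of 5 libraries. Atf4 and Rps19bp1 are low and Cacna1i is present in all 10 ECKO libraries, and Mief1 overlaps across the 4 groups.

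Atf4 was more abundant in the soleus than in the EDL of wild type mice. The EDL libraries 1 to 5 held 265.3, 259.5, 280.9, 243.3 and 261 CPM, with a mean of 262 ± 13.5 (SD, n = 5). The soleus libraries held 552.4, 552.6, 541.9, 589.4 and 534.9 CPM, with a mean of 554.2 ± 21.0 (SD, n = 5). The groups did not overlap, which held for 23.1% of all tested genes in this comparison. The log2 difference, soleus minus EDL, was 1.08 ± 0.0484 (SE), with an adjusted p of 1.63e-15 by edgeR's quasi-likelihood test with Benjamini-Hochberg adjustment over all genes. The immune markers given above moved the same way, and their part in this difference was not tested.

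In ECKO cells Atf4 RNA was low in both muscles. It stood at 8.44, 7.862, 5.792, 7.193 and 7.609 CPM in the EDL libraries and at 8.695, 8.155, 7.998, 7.968 and 8.64 CPM in the soleus libraries. No ECKO library came near the lowest wild type library. The log2 change, ECKO minus wild type, was -5.16 ± 0.0674 (SE) in EDL and -6.06 ± 0.0654 in soleus, which ranked 7 and 4 from the lowest among the 13971 tested genes. Between the ECKO groups the log2 difference of soleus and EDL was 0.19 ± 0.0844 (SE, edgeR adjusted p = 0.129). The difference of the genotype effect between the muscles, an interaction term, was -0.89 ± 0.0981 (SE), and it was -0.88 without ECKO soleus libraries 1, 2 and 3. With ECKO near 8 CPM in both muscles, this value largely restates the muscle difference of the wild type.

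Of the 4 genes, Atf4 was the only one that passed the test between muscles in wild type, where 32.4% of all tested genes passed. Cacna1i could not be compared there because both wild type groups were at 0.

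Rps19bp1, the gene that faces Atf4, was low in ECKO cells of both muscles. The wild type libraries held 17.87, 19.25, 17.57, 16.22 and 19.94 CPM in EDL and 25.58, 19.06, 21.24, 19.42 and 21.4 CPM in soleus. The ECKO libraries held 2.227, 1.882, 1.363, 1.128 and 2.021 CPM in EDL and 1.838, 2.127, 2.181, 1.865 and 1.829 CPM in soleus. All ECKO libraries lay below all wild type libraries. The log2 change was -3.45 ± 0.145 (SE) in EDL and -3.44 ± 0.133 in soleus, so that 0.0917 and 0.0920 of the wild type level remained. These changes ranked 19 and 62 from the lowest among all tested genes.

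The muscle difference of Rps19bp1 did not pass the test. In wild type its log2 difference, soleus minus EDL, was 0.23 ± 0.104 (SE, edgeR adjusted p = 0.0944), and the ranges of the groups overlapped. In ECKO it was 0.24 ± 0.184 (SE, edgeR adjusted p = 0.426). The interaction was 0.01 ± 0.179 (SE). In TPM (a transcript abundance that is scaled by length) the wild type means were 36.9 ± 2.46 in EDL and 37.3 ± 3.95 in soleus (SD, n = 5).

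Cacna1i had no count in any of the 10 wild type libraries. In ECKO it stood at 20.63, 18.38, 18.48, 21.3 and 18.67 CPM in the EDL libraries and at 18.8, 15.13, 14.48, 13.56 and 14.45 CPM in the soleus libraries. Every ECKO library had it and no wild type library did. Among the 13971 tested genes it was the only one with 0 counts in all 10 wild type libraries, and it passed the low-count filter only through the ECKO groups. A count of 0 allows up to 3 counts over 5 libraries, or 0.0359 CPM in wild type EDL and 0.0451 CPM in wild type soleus, for counting error only. Against that floor Cacna1i was at least 543-fold higher in ECKO EDL (1018 counts over the 5 libraries) and at least 339-fold higher in ECKO soleus (1109 counts).

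All 10 ECKO libraries, which held Cacna1i, had at least 18 CPM of Xist, and the wild type libraries had at most 0.274 CPM. Within ECKO soleus, libraries 1 and 2, with 18.6 and 18 CPM of Xist, held 18.8 and 15.13 CPM of Cacna1i, while libraries 4 and 5, with 81.5 and 76.2 CPM of Xist, held 13.56 and 14.45 CPM, and library 3, with 43.8 CPM, held 14.48 CPM. Genotype and sex-linked RNA cannot be told apart between the groups. Cacna1i was lower in ECKO soleus than in ECKO EDL, with a log2 difference of -0.35 ± 0.117 (SE, edgeR adjusted p = 0.0438), and 18.4% of all genes passed in this comparison. The ranges overlapped, and the call was lost (adjusted p from 0.0611 to 0.115) when any single ECKO library other than soleus library 1 was left out. It was also lost without soleus libraries 1, 2 and 3 (-0.48, adjusted p = 0.0546).

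Mief1, the neighbour upstream, was at a similar level in the 4 groups and passed no test. The means were 28.5 ± 1.84 CPM in wild type EDL, 29.98 ± 2.33 CPM in wild type soleus, 29.9 ± 2.49 CPM in ECKO EDL and 31.7 ± 2.51 CPM in ECKO soleus (SD, n = 5), with all ranges overlapping. The log2 change with genotype was 0.08 ± 0.0734 (SE) in EDL and 0.08 ± 0.0723 in soleus. Between muscles it was 0.08 ± 0.0721 in wild type (edgeR adjusted p = 0.447) and 0.08 ± 0.0736 in ECKO (adjusted p = 0.541), and the interaction was 0.00 ± 0.103. On the log2(TPM + 1) scale the soleus genotype difference was 0.40, and the highest wild type library (9.02 TPM) lay just above the lowest ECKO library (8.95 TPM).

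Between ECKO and wild type, 3 of the 4 genes had groups that did not overlap in EDL and the same 3 in soleus. Such a separation held for 22.4% of all tested genes in EDL and 20.2% in soleus, and since this contrast was known when the genes were picked, nothing is read from the count. Genes that were separated and at least 4-fold lower made up 0.379% of all genes in EDL and 1.29% in soleus, and those at least 4-fold higher 0.429% and 0.122%.

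Compared per length, in TPM, the order of the 4 genes differed by genotype. In wild type EDL and soleus, Atf4 had 222.4 and 406.3 TPM, Rps19bp1 36.9 and 37.3, Mief1 9.08 and 8.21, and Cacna1i 0, with no overlap between neighbours in this order. In ECKO EDL the means were 10.0 ± 1.09 for Mief1, 6.61 ± 0.806 for Atf4, 4.56 ± 0.725 for Rps19bp1 and 2.91 ± 0.268 for Cacna1i (SD, n = 5), and the libraries of Atf4 and Rps19bp1 overlapped. In ECKO soleus they were 11.2 ± 1.84, 7.09 ± 0.347, 5.22 ± 0.660 and 2.05 ± 0.228, with no overlap between neighbours.

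Of the 20 transcripts, 8 passed the low-count filter of the transcript fit, Cacna1i-202 only through the ECKO groups. Between muscles 1 of the 8 passed the test in wild type (9.20% of all tested transcripts) and 1 in ECKO (5.08%). These tests do not include the uncertainty of splitting reads between transcripts of a gene.

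The spliced coding transcript Atf4-201 carried nearly all Atf4 reads of wild type cells. It had 2963 to 5635 estimated counts in the EDL libraries and 5201 to 9296 in the soleus libraries. In ECKO it kept 57.69, 60.51, 61.31, 91.08 and 61.46 estimated counts in EDL and 107.28, 56.92, 114.4, 71.02 and 168.17 in soleus, so reads assigned to the spliced form were left in every ECKO library. Its log2 change with genotype was -5.35 ± 0.0753 (SE) in EDL and -6.28 ± 0.0759 in soleus. The muscle difference in wild type was 1.08 ± 0.0583 (SE, edgeR adjusted p = 2.44e-10 over all transcripts) and the interaction was -0.92 ± 0.0987.

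The unspliced Atf4-203 had the smaller change. This transcript had 14.31, 10.49, 6.69, 10.92 and 2.54 estimated counts in ECKO EDL and 15.72, 12.08, 17.6, 22.98 and 20.83 in ECKO soleus, against 18.4 to 68.0 and 41.2 to 87.3 in the wild type groups. Its log2 change with genotype was -1.59 ± 0.349 (SE) in EDL and -1.84 ± 0.343 in soleus. As a share of all Atf4 counts it made up 1.02% ± 0.362 in wild type EDL and 0.853% ± 0.184 in wild type soleus, and 11.8% ± 5.93 in ECKO EDL and 15.8% ± 5.38 in ECKO soleus (SD, n = 5). The lowest ECKO library had 3.97% and the highest wild type library 1.54%, so the genotypes did not overlap. Between muscles the share did not pass a 2-sided exact permutation test in wild type (p = 0.381, adjusted p = 0.491 over 25 share comparisons) or in ECKO (p = 0.31, adjusted p = 0.484). Atf4-202, a coding transcript of 659 bases, had at most 4.63 estimated counts in any library and none in ECKO.

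For Rps19bp1 the low level in ECKO lay in the coding transcript. Rps19bp1-201 had 201 to 416 estimated counts in wild type EDL and 174 to 307 in wild type soleus. In ECKO it had 15.4, 14.03, 7.07, 7.97 and 17 in EDL and 13.96, 16.57, 26.35, 17.74 and 26.21 in soleus. The log2 change with genotype was -3.86 ± 0.278 (SE) in EDL and -3.85 ± 0.271 in soleus. The small transcripts had no such gap, since Rps19bp1-203 ranged from 0 to 4.60 estimated counts in wild type and from 0 to 10.97 in ECKO, and the retained intron transcript Rps19bp1-202 from 0 to 4.51 and from 0 to 4.14. The share of Rps19bp1-201 was 97.9% ± 1.22 in wild type soleus and 73.0% ± 14.6 in ECKO soleus (SD, n = 5), where single libraries lay between 53.7% and 92.1% of a total that was itself small. In EDL the wild type libraries lay between 97.66% and 100%, and the ECKO libraries at 81.08%, 82.5%, 44.18%, 49.84% and 100%, so that the genotypes overlapped there.

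**Figure D2:**
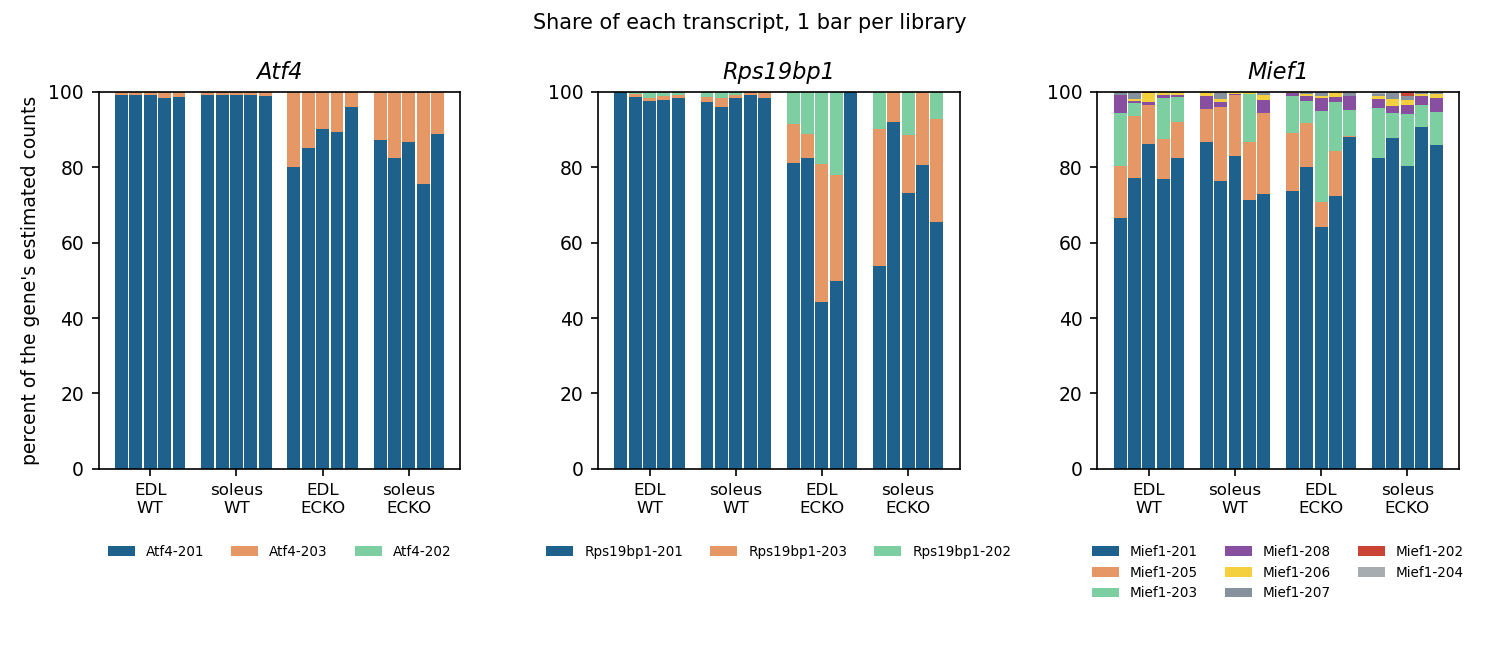
Percent of the estimated counts of Atf4, Rps19bp1 and Mief1 (vertical axis) taken by each annotated transcript, with 1 stacked bar for each of the 20 libraries. Atf4-203 takes 3.97% or more in each ECKO library and at most 1.54% in each wild type library, and Mief1-205 is missing from the ECKO soleus bars.

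Nearly all counts of Cacna1i were assigned to its full-length form. Cacna1i-202 had 176, 166, 217, 302 and 156 estimated counts in ECKO EDL and 266, 128, 239, 160 and 316 in ECKO soleus. All 10 values were whole numbers within 0.001, with no fraction of a read assigned to another transcript. Cacna1i-205 shares most exons of Cacna1i-202, so whole numbers do not show that the reads fit Cacna1i-202 alone. Of the other 5 transcripts only Cacna1i-203 had a count, 1 in ECKO EDL library 5. The full-length transcript has 6597 coding bases. Per length it stood at 2.78 ± 0.196 TPM in ECKO EDL and 2.05 ± 0.228 TPM in ECKO soleus (SD, n = 5).

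Beneath the even level of Mief1, its coding transcript Mief1-205 differed. It shares the coding length of 1389 bases with the main form Mief1-201. In estimated counts it stood at 47.91, 94.62, 38.73, 53.92 and 50.13 in wild type EDL, 33.86, 52.46, 68.4, 79.67 and 86.1 in wild type soleus, and 39.12, 33.19, 20.87, 56.08 and 0.71 in ECKO EDL. In ECKO soleus no library exceeded 0.0604. The transcript was thus near 0 in all 5 ECKO soleus libraries and in 1 of the 5 ECKO EDL libraries.

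Between the ECKO groups the log2 difference of Mief1-205, soleus minus EDL, was -8.26 ± 0.934 (SE, edgeR adjusted p = 6.46e-05 over all transcripts), and the interaction was -8.73 ± 1.1. With ECKO soleus near 0 these folds depend on the prior count and are no bounds. As a share of Mief1 the transcript made up 9.19% ± 5.94 in ECKO EDL and 0.00171% in ECKO soleus (2-sided exact permutation p = 0.00794, the smallest that 5 against 5 libraries can give, adjusted p = 0.0283). When a single ECKO library other than EDL library 5 was left out, the difference in share was -7.58 to -9.87 percentage points against -9.18 with all libraries, and the adjusted p was 0.0567. With 5 against 4 libraries the smallest p is 0.0159. In wild type the shares were 12.0% ± 2.90 in EDL and 16.2% ± 4.95 in soleus (exact permutation p = 0.159, adjusted p = 0.361).

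Mief1-201 carried most of the reads of the gene, with shares from 64.2% to 90.6% in the 20 libraries. Its log2 change with genotype was 0.01 ± 0.101 (SE) in EDL and 0.21 ± 0.1 in soleus. Mief1-203, annotated as a target of nonsense-mediated decay, had 66.5 estimated counts in 1 wild type soleus library and 0 or near 0 in the other 4, and between 16.2 and 78.4 in all ECKO libraries. In wild type EDL it had 49.66, 20.08, 0, 55.7 and 36.05, within or near the ECKO range in 4 of 5 libraries. The retained intron transcript Mief1-208 reached at most 27.4 estimated counts. Mief1-202, Mief1-204, Mief1-206 and Mief1-207 had at most 10.8 in any library.

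Beyond the 4 genes, 32 genes in the tables start within 500 kb of the start of Atf4, and 11 of them passed the low-count filter. The closest of these, Tab1, starts 122057 bases before Atf4, so no further tested gene lies between Mief1 and Cacna1i or next to them. In soleus 6 of the 11 passed the genotype test, against 32.0% of all tested genes, with 5 higher and 1 lower (14.6% and 17.4% of all genes). In EDL 4 of the 11 passed, all higher, against 29.0% in either direction and 13.9% higher. The EDL count in either direction is near that of all genes. The log2 changes of the 11 genes, apart from Syngr1, ran from -0.32 to 1.37.

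Cbx7, which encodes a Polycomb chromobox protein, rose in ECKO cells of both muscles, by 0.60 ± 0.0744 (log2, SE) in EDL and 1.048 ± 0.0739 in soleus (edgeR adjusted p = 5.78e-07 and 1.44e-11). Its mean level was 37.5 ± 3.97 CPM in wild type EDL, 56.7 ± 2.02 CPM in ECKO EDL, 35.1 ± 4.40 CPM in wild type soleus and 72.6 ± 3.12 CPM in ECKO soleus (SD, n = 5). Apobec3, an antiviral cytidine deaminase, rose by 0.36 ± 0.071 and 0.89 ± 0.0714 (adjusted p = 0.000284 and 1.94e-10). D730005E14Rik, which overlaps Apobec3 on its strand and is therefore uncertain, rose by 0.57 ± 0.205 and 1.37 ± 0.204 (adjusted p = 0.0376 and 7.2e-06). Its EDL call was lost with limma-voom (0.55, adjusted p = 0.0895) and when any of 7 EDL libraries was left out (adjusted p from 0.0528 to 0.0994). Without ECKO soleus libraries 1, 2 and 3 the soleus changes were 1.075 for Cbx7, 0.69 for Apobec3 and 0.59 for D730005E14Rik. All still passed (edgeR adjusted p = 5.1e-10, 1.22e-08 and 0.00633), in a fit that cannot separate genotype from sex-linked RNA.

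Pdgfb, the chain of platelet-derived growth factor by which endothelial cells recruit pericytes, rose in soleus only by the test, by 0.62 ± 0.076 (log2, SE, edgeR adjusted p = 3.45e-07), with -0.00 ± 0.076 in EDL (adjusted p = 0.985). The interaction was 0.62 ± 0.107 (adjusted p = 8.51e-05). Without ECKO soleus libraries 1, 2 and 3 the soleus change of Pdgfb was 0.41 (edgeR adjusted p = 1.91e-05). The sum of 10 pericyte and smooth muscle markers was 594.5 to 699.9 CPM in wild type soleus and 792.2 to 1220 CPM in ECKO soleus. In EDL, where Pdgfb did not pass, it was 864.8 to 876.6 CPM in wild type and 2005 to 2069 CPM in ECKO. The EDL rise lay mainly in Acta2 (means of 188.6 and 1024 CPM) and Tagln (130.1 and 518.8 CPM). In soleus 6 of the 10 markers were higher with ECKO and 0 lower (14.6% and 17.4% of all genes). Their median log2 change was 0.46. In EDL 2 were higher and 1 lower (13.9% and 15.1%), with a median of -0.02. The part of these markers in the rise of Pdgfb was not tested. Cbx6, another chromobox gene, rose by 0.37 ± 0.0977 in soleus (adjusted p = 0.00455), but by 0.10 without ECKO soleus libraries 1, 2 and 3 (adjusted p = 0.532). Rpl3, a ribosomal protein gene with processed copies elsewhere, rose by 0.15 ± 0.0403 in EDL (adjusted p = 0.00604). This call was lost without the low-count filter (0.12, edgeR adjusted p = 0.119). Syngr1, a gene for a vesicle membrane protein, fell in soleus from 3.15 ± 0.919 to 0.457 ± 0.184 CPM (SD, n = 5), with a log2 change of -2.75 ± 0.377 (SE, adjusted p = 2.18e-06). The immune markers fell in the same comparison, and their part in the fall of Syngr1 was not tested.

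**Figure D3:**
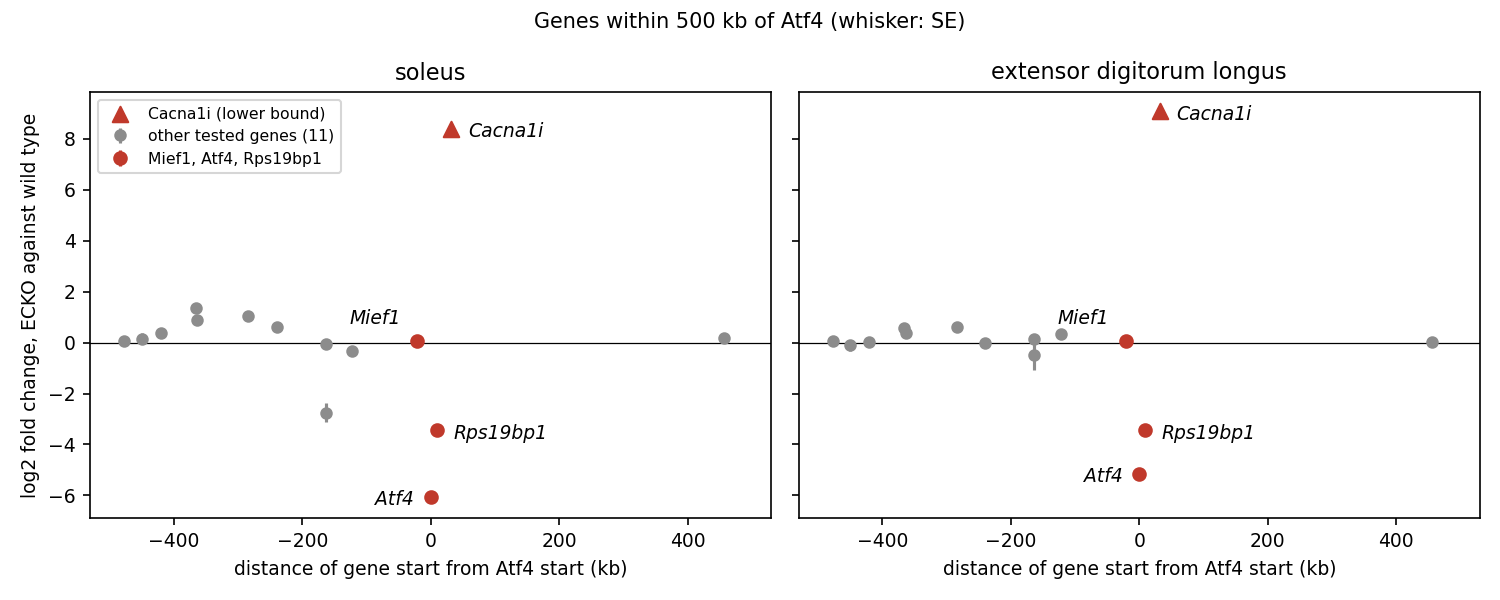
Log2 fold change of ECKO against wild type (vertical axis) for Mief1, Atf4, Rps19bp1, Cacna1i and the 11 other tested genes within 500 kb, by the distance of their start from that of Atf4 in kb (horizontal axis), in soleus and EDL. Whiskers are the SE and triangles the lower bound for Cacna1i. Atf4 and Rps19bp1 lie below -3 in both muscles, while Mief1 lies near 0.

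Between muscles, 4 of the 11 neighbours passed in wild type (32.4% of all genes), 4 in ECKO (18.4%) and 7 in the interaction (22.6%), and the wild type count is near that of all genes. Without ECKO soleus libraries 1, 2 and 3 the ECKO count was 1 (Cbx7) and the interaction count 3 (Apobec3, Cbx7 and Pdgfb). That fit tested 14 neighbours, and the share of all genes called in it is not given here. In ECKO, Apobec3 then was at 0.03 instead of 0.23, and Pdgfb at 0.15 instead of 0.36. In the interaction D730005E14Rik was at 0.02 instead of 0.80. The ECKO count was 2 of 12 tested without ECKO soleus library 2 alone, and 2 of 13 tested without ECKO EDL library 1.

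Relatives of Atf4 were taken from a list of basic leucine zipper genes of the ATF, CREB and C/EBP families, written with earlier results known. Of 23 tested genes, 12 were higher and none lower in wild type soleus than in wild type EDL (16.4% and 15.9% of all genes), with a median log2 difference of 0.23 against -0.00 over all genes. In ECKO soleus 11 were lower and 1 higher than in wild type soleus (17.4% and 14.6% of all genes), with a median of -0.24 against 0.02. In EDL 3 were lower and 3 higher with ECKO (15.1% and 13.9% of all genes), with a median of -0.13 against 0.00. The interaction was called lower for 6 and higher for 1 (12.5% and 10.1% of all genes), and in ECKO 5 were higher in soleus and 0 lower (8.31% and 10.1% of all genes). The immune markers were likewise high in wild type soleus and lower in ECKO soleus, and their part in these counts was not tested.

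The stress-induced factor Atf3 stood at 76.6 ± 2.56 CPM in wild type EDL, 327.3 ± 64.1 CPM in wild type soleus, 66.5 ± 3.07 CPM in ECKO EDL and 83.5 ± 5.08 CPM in ECKO soleus (SD, n = 5). Its genotype change in soleus was -1.97 ± 0.0895 (log2, SE, edgeR adjusted p = 1.11e-15), and its interaction -1.77 ± 0.128 (adjusted p = 7.63e-11). Atf5, a close relative of Atf4, fell with ECKO by 1.64 ± 0.147 on the log2 scale in EDL and fell by 3.21 ± 0.138 in soleus (adjusted p = 2.2e-09 and 3.57e-16). Crem, a cyclic AMP response modulator, fell by 0.50 ± 0.0578 in EDL and fell by 0.61 ± 0.0569 in soleus (adjusted p = 2.1e-07 and 3.57e-09). Atf6, the membrane-bound sensor of unfolded protein, fell by 0.78 ± 0.0654 in soleus (adjusted p = 4.18e-10).

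**Figure D4:**
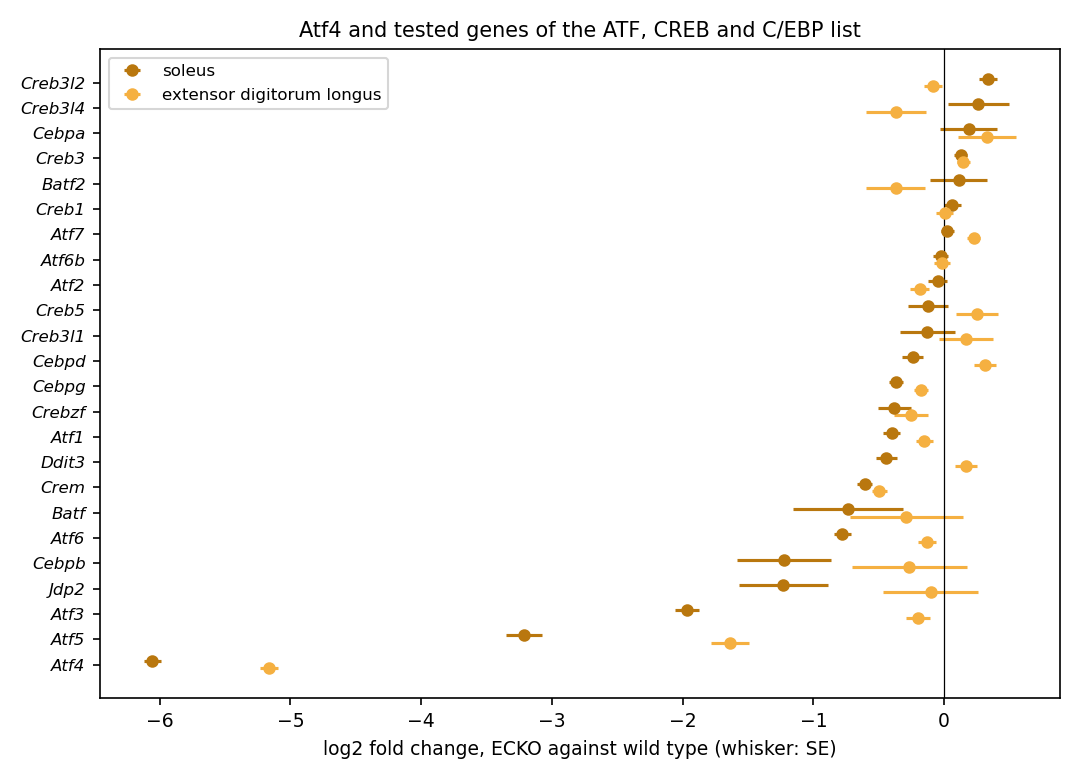
Log2 fold change of ECKO against wild type (horizontal axis, whiskers the SE) in soleus and EDL for Atf4 and the 23 tested genes of the ATF, CREB and C/EBP list (vertical axis, ordered by the soleus value). Atf4 lies at -6.06 and -5.16, with Atf5 next at -3.21 and -1.64.

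Known targets of the Atf4 protein were low in ECKO cells. Their list shares Atf5, Ddit3 and Cebpb with the list of relatives of Atf4, so the counts of these lists are not independent. Of 20 tested targets, a list written with earlier results known, 19 were lower with ECKO in soleus (17.4% of all genes) and 16 in EDL (15.1%), none was higher (14.6% and 13.9%), and the median log2 changes were -3.04 and -1.25. In wild type 19 were higher in soleus than in EDL (16.4% of all genes) and 1 lower (15.9%), with a median of 1.4998. In ECKO 1 was higher (8.31% of all genes) and 3 were lower (10.1%), with a median of -0.04, and the interaction was lower for 18 (12.5%) and higher for 0 (10.1%). Asns, the asparagine synthetase gene, fell by 1.84 ± 0.0512 on the log2 scale in EDL and fell by 3.43 ± 0.0523 in soleus (edgeR adjusted p = 1.18e-19 and 4.95e-26). Mthfd2, a mitochondrial folate enzyme, fell by 3.19 ± 0.0975 in EDL and fell by 5.11 ± 0.0898 in soleus (adjusted p = 9.48e-19 and 1.2e-24).

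Genes of mitochondrial fission and fusion, the process in which Mief1 acts, were taken from a list. Of 15 tested, 1 was higher and 3 were lower with ECKO in soleus (14.6% and 17.4% of all genes), and 4 were higher and 4 lower in EDL (13.9% and 15.1%). The soleus count of lower genes is near that of all genes. Inf2, an actin-polymerising formin at fission sites, rose by 0.29 ± 0.0681 in EDL and 0.36 ± 0.0673 in soleus (log2, SE, edgeR adjusted p = 0.0022 and 0.000119). Mff, another receptor of the fission enzyme, fell by 0.19 ± 0.0489 in EDL and fell by 0.21 ± 0.0485 in soleus (adjusted p = 0.00365 and 0.00165). Dnm1l, the fission enzyme itself, fell by 0.22 ± 0.056 in soleus (adjusted p = 0.00347). Between muscles 1 was higher and 2 were lower in wild type (16.4% and 15.9% of all genes) and likewise 1 and 2 in ECKO (8.31% and 10.1%), and the interaction was higher for 2 and lower for 1 (10.1% and 12.5%), all near or below the shares of all genes.

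Of the binding partners of the Rps19bp1 protein, Rps19 fell with ECKO in soleus by 0.29 ± 0.0446 on the log2 scale (SE, edgeR adjusted p = 1.05e-05) and did not pass in EDL. Its interaction was -0.29 ± 0.0631 (adjusted p = 0.00137). Rps19 was higher in soleus in wild type, by 0.13 ± 0.0446 (adjusted p = 0.024), and lower in soleus in ECKO, with -0.15 ± 0.0447 (adjusted p = 0.0164). Sirt1 passed in none of the 5 comparisons.

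Other voltage-gated calcium channel genes were low. Of 17 listed, 7 passed the low-count filter, 1 of them was higher with ECKO in soleus (14.6% of all genes) and 2 in EDL (13.9%), and none was lower (17.4% and 15.1%), so the soleus count of higher genes is near that of all genes. The other T-type pore genes, Cacna1g and Cacna1h, had group means between 0.286 and 0.618 CPM and between 0.590 and 2.26 CPM. Cacna1h rose with ECKO in EDL by 0.92 ± 0.333 (log2, SE, edgeR adjusted p = 0.0385). Cacna1s, the pore of the skeletal muscle channel, rose by 2.47 ± 0.776 in EDL and 1.97 ± 0.586 in soleus (adjusted p = 0.0178 and 0.0108), from means of 0.0808 and 0.262 CPM. The sum of 13 muscle fibre markers was 47.45 to 54.71 CPM in wild type EDL, 135.3 to 144.5 in ECKO EDL, 96.39 to 201.1 in wild type soleus and 203.6 to 273 in ECKO soleus, and its part in these rises was not tested. Markers of Schwann cells and neurons summed to between 37.47 and 71.61 CPM in all libraries.

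The genes whose levels ran most like each member were found by Pearson's r of log2 CPM over the 20 libraries, which share the genotype and muscle of their group, so that r is a description. For Atf4 they were Rps19bp1 (r = 0.990), Cp (0.983) and Emcn (0.983). For Rps19bp1 they were Atf4, Prdx6 (0.976) and Cp (0.976). For Cacna1i they were Esr1 (0.988), Xist (0.986) and Tsix (0.976), and for Mief1 they were Mroh1 (0.731), Gm48768 (0.714) and Stk11 (0.7097).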

How the data were processed

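RNA of sorted endothelial cells was sequenced in 20 libraries, with a stranded poly(A) kit and single reads of 100 bases per the labels' protocols. For each library, the authors deposited estimated counts and TPM for every transcript. The submitters' processing notes name kallisto and DESeq2 and the build GRCh38.p13, a human assembly, but the IDs are mouse. Of 129439 target IDs, 128643 were found in mouse GENCODE M21 (GRCm38), 128254 with the same length, and no more than 0.221% of the counts of any library lay outside. Versions and strand setting are not given in the sources used here.

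Estimated counts were summed per gene (also kept per transcript) and rounded. edgeR 4.0.16 in R 4.3.3 (quasi-likelihood test, TMM, filterByExpr, 1 fit of 4 group means) gave log2 changes, SE and Benjamini-Hochberg adjusted p over all genes or transcripts, with a call at 0.05. The SE is the change over the square root of F. Transcript shares were tested by 2-sided exact permutation (252 assignments) where the gene had a mean of at least 20 and the transcript 10 estimated counts. The fit was tested on simulated data. Alternatives used DESeq2 1.42.0, RLE factors, all genes without a filter, voom of limma 3.58.1, log2(TPM + 1), the compared groups alone, a replicate block and leaving out libraries.

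The 4 genes, the lists and the tests were chosen with earlier results of these data known. Named were the 4 genes with their transcripts, tested genes within 500 kb, the 3 genes most like each in log2 CPM (prior count 2) and up to 4 genes of each list with the smallest adjusted p. Cacna1g and Sirt1 were added after their values were seen. Replicate libraries differed by more than sampling noise.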

Additional observations from a re-analysis of the deposited data

Results flagged for a closer look

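The effect of genotype differed between the muscles, by the interaction term of the edgeR fit, for Atf4 (log2 -0.89), its transcript Atf4-201 (-0.92) and Mief1-205 (-8.73). These are descriptions, since the genes were picked with the genotype difference known, and for Atf4 and Atf4-201 the value largely restates the muscle difference of the wild type. Among the neighbours it differed for D730005E14Rik (0.80), Apobec3 (0.52), Cbx7 (0.45), Pdgfb (0.62), Syngr1 (-2.28), Rpl3 (-0.19) and Tab1 (-0.64). Without ECKO soleus libraries 1, 2 and 3, Apobec3 (0.33), Cbx7 (0.48) and Pdgfb (0.42) still passed. The calls of Syngr1 (-1.97), Rpl3 (-0.17) and Tab1 (-0.56) were lost at a similar size, with fewer libraries in the fit, and that of D730005E14Rik was lost at 0.02. On log2(TPM + 1), limma gave -0.032 for Rpl3 (adjusted p = 0.735), -0.425 for Tab1 (0.0946) and 0.675 for D730005E14Rik (0.0586). Syngr1 and Rpl3 lost their calls without the low-count filter (edgeR adjusted p = 0.0704 and 0.155). Syngr1 also lost its call without some single libraries (up to 0.188). D730005E14Rik lost its call with limma-voom (adjusted p = 0.177) and without most single libraries (edgeR adjusted p from 0.0504 to 0.0983).

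A library stood far from the other 4 of its group in 5 of 44 groups scanned. No rate by chance is given, since some of these groups were at or near 0 in most libraries. Cacna1i-202 was at 2.45 TPM in ECKO soleus library 1, with the others between 1.90 and 1.98. Mief1-203 was at 1.07 TPM in wild type soleus library 4, with the others at or near 0. Mief1-205 was at 0.000911 TPM in ECKO soleus library 5, with the others at or near 0. Mief1-208 was at 0.703 TPM in wild type EDL library 1 and at 0.587 TPM in ECKO soleus library 5.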

How the results depend on the processing

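Over 139 results and 2343 pairs of result and alternative, 2141 kept direction and side of the threshold (or stayed within the spread), 136 lost the call, 33 gained it, 2 reversed and 31 moved. The wild type muscle difference of Atf4 kept its call in every alternative run. Rps19bp1 passed between wild type muscles with limma-voom (0.22, adjusted p = 0.0371). Cacna1i between ECKO muscles lost its call without the low-count filter (-0.34, adjusted p = 0.124) and without ECKO soleus libraries 1, 2 and 3 (-0.48), and ran from -0.44 to -0.31 when 1 ECKO library was left out. On the log2(TPM + 1) scale, whose pseudocount pulls low levels together, the genotype changes were -5.655 in soleus and -4.881 in EDL for Atf4, -2.623 and -2.776 for Rps19bp1, and 0.40 in soleus for Mief1 (for Mief1 the cause was not tested). Rpl3 reversed on that scale between wild type muscles (-0.067) and for genotype in soleus (0.227), and the cause was not tested. The lower bound of log2 fold for Cacna1i ran from 8.01 to 8.45 in soleus and from 8.65 to 9.11 in EDL with 1 library left out, since fewer wild type counts raise the floor. The number of called neighbours between ECKO muscles ranged from 2 to 6 with 1 library left out, and was 1 without ECKO soleus libraries 1, 2 and 3. In the interaction it was then 3. The number of neighbours tested was 14 in that fit and also changed with single libraries left out.

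Libraries of the same number did not deviate together (correlations from -0.0585 to 0.0996), and 4 of 20 libraries were most like the same number in another group. With the replicate number as a block, Cacna1i between ECKO muscles was at -0.36 (adjusted p = 0.0581) and the interaction of D730005E14Rik at 0.76 (adjusted p = 0.0728). The block ended no other gene call. At most 26.35 estimated counts lay behind each ECKO value of Rps19bp1-201, which limits its shares.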
